A study of Acipenser sinensis with 45 samples.

Results

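Hypothalamus and gonad were compared within the same 6 fish of Chinese sturgeon (*Acipenser sinensis*) in stage I of gonadal development. The samples were chosen by their labels: the 6 stage I hypothalamus libraries (UH) and the 6 stage I gonad libraries (UG), which make up 12 of the 45 RNA-seq libraries of the series. The stage I fish were 1 year old, came from an artificial breeding population and received no treatment, and their sex was not determined because gonad histology does not show it at that stage. A library and the library with the same number in the other tissue came from the same fish, so that UH replicate 1 and UG replicate 1 are both from fish 1. Males and females in stage II, more than 4 years old and from the same population, supplied the other hypothalamus (MH, FH), pituitary (MP, FP) and gonad (MG, FG) libraries, and UP denotes the stage I pituitary. The comparison asks how the brain end and the gonad end of the reproductive axis differ in RNA before the sex of the gonad can be seen.

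The hypothalamus, pituitary and gonad form a hormonal chain in vertebrates. Neurons of the hypothalamus release gonadotropin-releasing hormone, the pituitary answers with gonadotropins, and these act on the gonad, where germ cells develop among steroid-producing and supporting cells. The hypothalamus is nervous tissue made of neurons and glia. An immature gonad holds early germ cells in somatic tissue and has not yet formed sperm or eggs.

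Levels were given as FPKM (fragments scaled to unigene length and to the mapped fragments of the library) for 121952 unigenes, the transcripts assembled from all libraries together. Of these, 64643 were contigs of clusters of similar sequences and 57309 were single unigenes. None of their identifiers matched the 78555 genes of the RefSeq table for this species, so that unigenes are described by their levels and no gene name or function is given. For the same reason the tissue labels could not be checked with marker genes. Each of the 12 libraries had its highest correlation with a library of its own group. The expression table holds no read counts. A relative sequencing depth was read from its lowest values and was 0.960 to 1.11 in UH and 0.776 to 1.03 in UG, with UG replicate 1 the shallowest. Which libraries were run on which of the 2 sequencing instruments is not given in the sources used here, and its part in the results was not tested.

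The hypothalamus held more expressed unigenes than the gonad in 5 of the 6 fish. With a unigene counted as expressed at 1 FPKM or more, the 6 UH libraries held 78565, 79767, 74189, 75371, 68678 and 67325 in the order of fish 1 to 6. The 6 UG libraries of the same fish held 60651, 73873, 64347, 60543, 71867 and 59271. The groups overlapped, and fish 5 was the fish with more expressed unigenes in its gonad. The means were 73982.5 ± 5077 in UH and 65092 ± 6291 in UG (SD, n = 6 each), a difference of -8890.5 (two-sided exact permutation test, p = 0.0260, adjusted p = 0.0390 over the 3 comparisons made between libraries). Paired by fish, the exact sign permutation test gave p = 0.0625, so that the difference passed the threshold of 0.05 unpaired and missed it paired. At a limit of 5 FPKM the difference was -3684.5 (exact permutation test, p = 0.0823), at 0.1 FPKM it was -7452.2 (p = 0.0195), and after median-of-ratios scaling it was -7969.7 (p = 0.00216). Unigenes listed at 0 numbered 9150 to 13430 in UH and 11519 to 26345 in UG, the highest number being that of the shallow UG replicate 1. Without that library the difference was -8002.3 (exact permutation test, p = 0.0519). Without UG replicate 4 or 6, whose relative depths were 1.01 and 1.03, it was -7980.7 and -7726.3 (exact permutation test, p = 0.0519 each). The part of depth in the difference was not tested.

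The 10 unigenes highest in each library took a similar range of the summed FPKM in both tissues, while the 100 highest took more of it in the gonad. The 10 highest held 8.83%, 9.21%, 13.5%, 14.3%, 19.0% and 20.5% in UH replicates 1 to 6, and 17.2%, 10.9%, 14.1%, 10.6%, 9.63% and 14.7% in UG replicates 1 to 6. The groups overlapped over most of their range. The means were 14.2% ± 4.84 in UH and 12.9% ± 2.93 in UG (SD, n = 6 each), a difference of -1.36 percentage points (exact permutation test, p = 0.563, adjusted p = 0.563; paired, p = 0.625). For the 100 highest, every UG library (28.4% to 41.2%, mean 35.3% ± 5.63) was above every UH library (15.4% to 27.8%, mean 21.3% ± 5.11), a difference of 13.99 percentage points (SD, n = 6 each; exact permutation test, p = 0.00216, the smallest that 6 against 6 libraries can give).

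The gonads differed more from each other than the hypothalami did. Each library was given a distance, the mean of 1 minus Pearson's r with the 5 other libraries of its group on log2(FPKM + 1). The distances in UH replicates 1 to 6 were 0.123, 0.115, 0.102, 0.0997, 0.124 and 0.131. The distances in UG replicates 1 to 6 were 0.218, 0.179, 0.172, 0.226, 0.193 and 0.209. The groups did not overlap: the lowest gonad lay above the highest hypothalamus. The difference of means was 0.0837 (0.116 ± 0.0127 in UH and 0.1995 ± 0.0218 in UG, SD, n = 6 each; exact permutation test, p = 0.00216, adjusted p = 0.00649; paired exact sign permutation test, p = 0.03125 without adjustment, the smallest that 6 pairs can give). The distances of a group share libraries and are not fully independent.

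**Figure D1:**
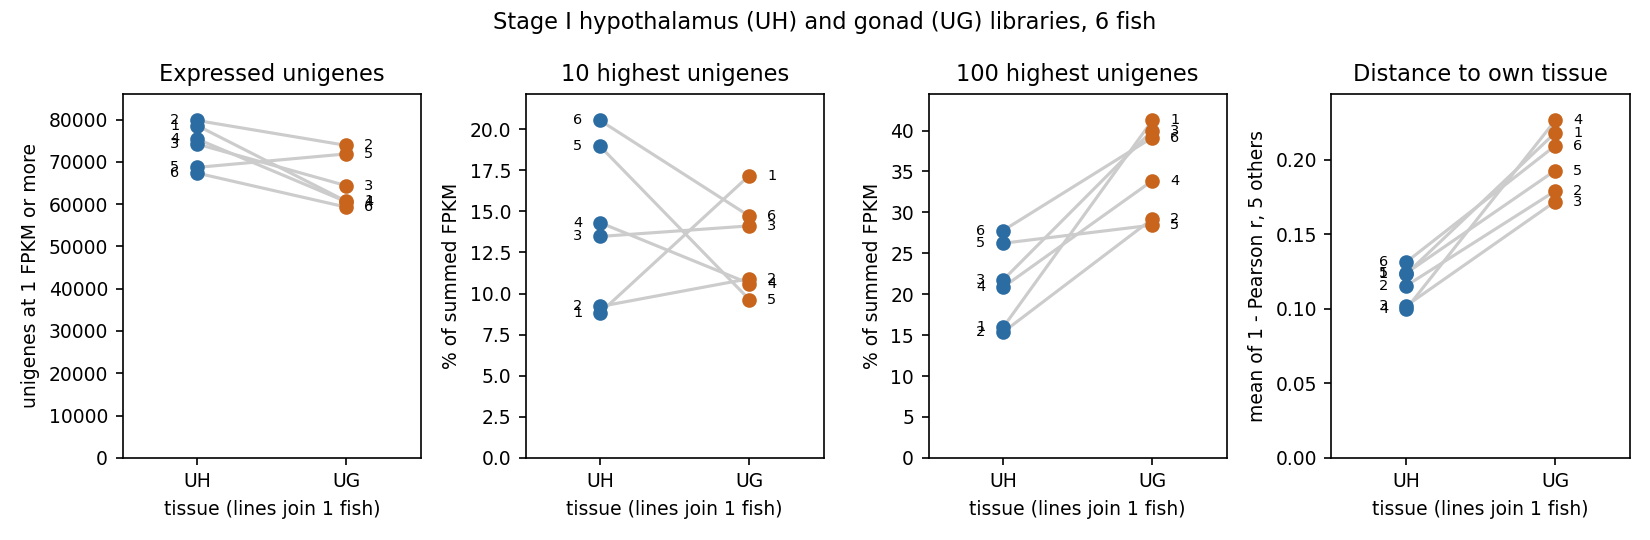
Number of expressed unigenes (at 1 FPKM or more), percentage of the summed FPKM in the 10 and in the 100 highest unigenes, and distance to the other libraries of the own tissue (mean of 1 - Pearson r), for the 6 UH and the 6 UG libraries. Each point is a library, numbered by fish, and lines join the tissues of a fish; in the 100 highest unigenes and in the distance every UG library lies above every UH library, while the other panels overlap.

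The distances average the correlations of pairs of libraries, and those of the pairs overlapped between the tissues. Pearson's r ranged from 0.822 to 0.922 among UH libraries (median 0.892) and from 0.737 to 0.885 among UG libraries (median 0.792). In UH, replicates 5 and 6 were the most alike (r = 0.922), and replicates 1 and 6 the least (0.822). In UG, replicates 2 and 3 were the most alike (0.885), and replicates 4 and 5 the least (0.737). Between the tissues r was 0.227 to 0.400 within a fish (median 0.372) and 0.241 to 0.391 across fish (median 0.346), 2 ranges that overlapped almost fully. These correlations run across unigenes, which are not independent replicates.

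The same spread was seen unigene by unigene. The median SD of log2(FPKM + 1) was 0.34 in UH and 0.51 in UG, and the SD was larger in UG for 58386 of 77167 tested unigenes (75.7%). Among the 30737 unigenes whose tissue means differed by less than 0.5 on the log2 scale, it was larger in UG for 24379 (79.3%), with median SDs of 0.33 and 0.51. The larger spread of the gonads was thus present at matched mean levels. Whether the sex of the fish, unknown here, had a part in it was not tested.

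The tissues of a fish were not clearly more alike than tissues of different fish. Deviations of each library from its group mean, correlated across unigenes between hypothalamus and gonad of the same fish, gave -0.138, 0.181, 0.259, 0.140, -0.0915 and -0.248 for fish 1 to 6. Their mean was 0.0170, against -0.00285 for tissues of different fish. The mean for different fish is tied to that for the same fish, because deviations within a group cancel out. The same-fish values had both signs, with 3 of 6 above 0.1 and 3 of 6 below 0, and in 2 of 6 fish the hypothalamus deviated most like its own gonad. UH replicates 5 and 6 both deviated most like UG replicate 1 (0.319 and 0.375). Each tissue difference is therefore given unpaired, with the fit that includes the fish as a block beside it.

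Close to 1 in 2 of the tested unigenes differed between the tissues, and more were lower than higher in the gonad. In the unpaired limma fit on log2(FPKM + 1), 38100 of 77167 unigenes passed an adjusted p of 0.05 (49.4%): 13792 were higher in UG (17.9%) and 24308 were lower in UG (31.5%). The fish block gave 37092 (48.1%), with 13255 higher (17.2%) and 23837 lower (30.9%). Both fits called 12660 unigenes higher and 23258 lower, and 0 unigenes changed direction between them. The standard error was smaller with the block for 36718 unigenes (47.6%), and the median ratio of the standard errors was 1.01. After median-of-ratios scaling, the unpaired fit called 15699 of 76851 tested unigenes higher and 23774 lower in UG. In this bulk tissue, fewer cells of a type and less RNA per cell cannot be told apart. FPKM are relative to the RNA of each library, so that a unigene lower in UG took a smaller part of the gonad RNA.

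The surplus of lower unigenes was greater among large differences, with 1.76 lower for each higher unigene over all calls, 7.23 at a log2 fold change of 5 or more and 6.75 at 7 or more. A log2 fold change of 1 or more was reached by 8448 unigenes higher and 17632 lower in UG, and of 3 or more by 579 and 2581. At 5 or more, 43 were higher and 311 lower, and at 7 or more, 4 and 27. The log2 fold change over all tested unigenes had a median of -0.14. Unigenes called higher had a median log2 fold change of 1.15 and median levels of 1.86 FPKM in UH and 6.84 FPKM in UG. Those called lower had a median of -1.43 and median levels of 5.46 FPKM in UH and 1.03 FPKM in UG.

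**Figure D2:**
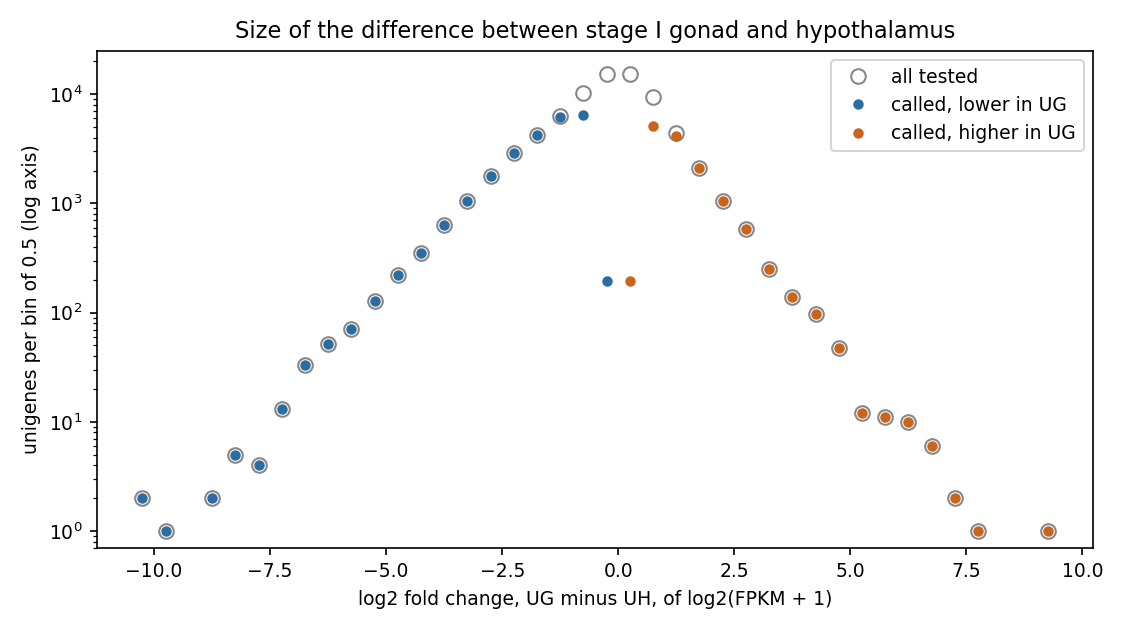
Number of unigenes (log axis) in bins of 0.5 of the log2 fold change, UG minus UH on log2(FPKM + 1). Open circles are all 77167 tested unigenes, blue points the 24308 called lower and orange points the 13792 called higher in UG; the side of lower unigenes holds more of the large differences, 311 against 43 at 5 or more.

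Complete separation of the libraries was more frequent in that direction too. All 6 UG libraries lay above all 6 UH libraries for 6647 unigenes (8.61% of those tested), and all 6 lay below for 16380 (21.2%). Within fish, the gonad was the higher tissue in all 6 fish for 11415 unigenes (14.8%) and the lower tissue in all 6 for 21569 (28%). The lowest gonad library among the unigenes called higher was most often UG replicate 4 (27.4% of them), followed by replicates 1 (20.4%) and 6 (18.6%), and least often replicate 2 (8.22%). Among the unigenes called lower, the lowest hypothalamus library was most often UH replicate 6 (27.4%) or 5 (21.5%). With each of the 12 libraries left out in turn, 11054 unigenes remained higher and 21615 remained lower in every fit. UH replicates 5 and 6 stood apart from replicates 1 and 2, and without fish 5 and 6 the counts were 9466 higher and 23653 lower, of which 8932 and 21120 were among the calls of all 6 fish.

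The direction of the calls turned with the level of expression. Unigenes were sorted by the mean of the tissue in which they were higher. From 1 to 5 FPKM, 5068 of 42710 were higher in UG (11.9%) and 11143 lower (26.1%). From 5 to 10 FPKM, 3956 of 18887 were higher (20.9%) and 6969 lower (36.9%). From 10 to 100 FPKM, 4455 of 14817 were higher (30.1%) and 5974 lower (40.3%). From 100 to 1000 FPKM the order turned, with 239 of 555 higher (43.1%) and 214 lower (38.6%). At 1000 FPKM or more, 74 of 84 were higher in UG (88.1%) and 8 were lower (9.52%).

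The called unigenes took unequal parts of the RNA in the tissues. The 13792 unigenes called higher in UG held 50.4% to 60.2% of the summed FPKM in the UG libraries and 11.7% to 15.7% in the UH libraries. The 24308 called lower held 46.6% to 57.7% in the UH libraries and 9.81% to 12.8% in the UG libraries. These shares describe the unigenes that the same libraries chose.

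The most abundant unigenes of both tissues were partly the same. Of the 100 unigenes with the highest mean in each tissue, 54 stood in both lists. The hypothalamus list reached from 273 to 34671 FPKM and the gonad list from 714 to 24698 FPKM. Of the gonad list, 90 were called higher in UG and 5 lower. The hypothalamus list was divided: 43 were lower in UG, 44 were higher in UG although they stood among the highest of the hypothalamus, and 13 did not pass the test. Of the 54 shared unigenes, 44 were higher and 5 lower in UG. In the hypothalamus list 10 unigenes were under 1 FPKM in the gonad, and in the gonad list 1 was under 1 FPKM in the hypothalamus. A place among the 100 highest of every one of the 6 libraries was held by 64 unigenes in UH and by 80 in UG.

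The contigs and the single unigenes had like shares of calls. Of 39588 contigs tested, 18.4% were higher and 30.2% lower in UG, and of 37579 single unigenes, 17.3% and 32.8%. A cluster groups contigs of similar sequence, which may be isoforms, alleles or duplicated genes, and reads shared between them may have been divided by the estimation. Of 4904 clusters with at least 2 called contigs, 1671 had all of them higher in UG, 2916 had all of them lower, and 317 had contigs in opposite directions (6.46%). The fish block gave 287 of 4717 (6.08%). In 118 of 3045 clusters (3.88%) the opposite contigs both differed by a log2 fold change of 1 or more, in 19 by 2 or more, in 6 by 3 or more and in 1 by 5 or more.

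The 2 unigenes chosen by rule as the most raised in the gonad were near or under 1 FPKM in every hypothalamus. Unigene52431_All, a single unigene whose name was not used here, had 643.6, 951.7, 1813, 2582, 849.9 and 787.5 FPKM in UG replicates 1 to 6, and 0.627, 1.21, 0.580, 0.706, 0.528 and 0.876 FPKM in UH replicates 1 to 6. The groups did not overlap, as the rule of choice required, and UG replicates 3 and 4 were the highest. Its log2 fold change was 9.32 (SE 0.30; limma, adjusted p = 4.37e-12; with the fish block SE 0.30, adjusted p = 5.28e-08). Unigene43049_All had 88.1, 235.7, 320.5, 578.7, 176.0 and 115.9 FPKM in UG replicates 1 to 6, and 0.0503, 0.0175, 0.0682, 0, 0 and 0.0152 FPKM in UH. Again UG replicates 3 and 4 were the highest, and no hypothalamus library came near the lowest gonad. Its log2 fold change was 7.67 (SE 0.36; limma, adjusted p = 1.77e-10; with the fish block SE 0.34, adjusted p = 1.90e-07).

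The 2 unigenes chosen as the most lowered in the gonad were abundant in every hypothalamus and at or near 0 in every gonad. Unigene37651_All had 884.0, 1346, 1583, 1372, 1663 and 1901 FPKM in UH replicates 1 to 6. In UG it was listed at 0 in 5 libraries and at 0.148 FPKM in replicate 5. Its log2 fold change was -10.44 (SE 0.19; limma, adjusted p = 6.85e-14; with the fish block SE 0.21, adjusted p = 1.21e-08). CL2071.Contig1_All, a contig of a cluster, had 724.9, 950.0, 1232, 1138, 1598 and 1906 FPKM in UH replicates 1 to 6, and 0, 0.131, 0, 0, 0.129 and 0.313 FPKM in UG. Its log2 fold change was -10.10 (SE 0.23; limma, adjusted p = 1.87e-13; with the fish block SE 0.21, adjusted p = 1.21e-08). Fold changes of unigenes near 0 depend on the pseudocount: with 0.1 in place of 1, the values of the 4 unigenes in the order given were 10.40, 10.72, -13.57 and -12.80. Over 20 alternative settings all 4 stayed past the threshold, with adjusted p-values of at most 4.21e-07. The 4 were chosen by their calls, lack of overlap and large change in the same libraries, so such p-values were favoured by the choice.

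The 4 unigenes were also measured in the other groups. Unigene52431_All had 474 ± 277 FPKM in MG (SD, n = 6), 7.54 ± 2.79 in FG (n = 3), 1.17 ± 0.466 in UP (n = 6) and 0.958 ± 0.332 in MH (n = 5). Unigene43049_All had 119 ± 87.2 FPKM in MG and 5.43 ± 5.93 in FG, against 0.133 ± 0.0689 in UP. In the other female tissues Unigene52431_All had 4.55 ± 7.13 FPKM in FH and 4.41 ± 3.66 in FP (n = 3 each), and both ranges overlapped with FG. Unigene43049_All had 0.507 ± 0.832 FPKM in FH, which overlapped with FG, and 0.167 ± 0.231 in FP, which did not. Both unigenes were thus high in UG and MG and far lower in FG, where only 3 fish were measured. The median level over all tested unigenes was also lower in FG (0.530 FPKM) than in MG (3.41 FPKM), and lower in FH (1.57 FPKM) than in MH (3.05 FPKM). Unigene37651_All had 1063 ± 272 FPKM in MH and 129 ± 89.7 in FH, and 45.4 ± 24.96 in UP. CL2071.Contig1_All had 617 ± 141 FPKM in MH and 46.3 ± 43.2 in FH, and 29.9 ± 16.5 in UP. The pituitary level of both lay between the levels of hypothalamus and gonad in stage I, with UP at 14.7 to 84.0 FPKM for Unigene37651_All and 11.04 to 55.1 FPKM for CL2071.Contig1_All, ranges that overlapped with neither tissue. Both were chosen for their extreme levels in UH and UG, which by itself favours a level between them in another tissue.

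**Figure D3:**
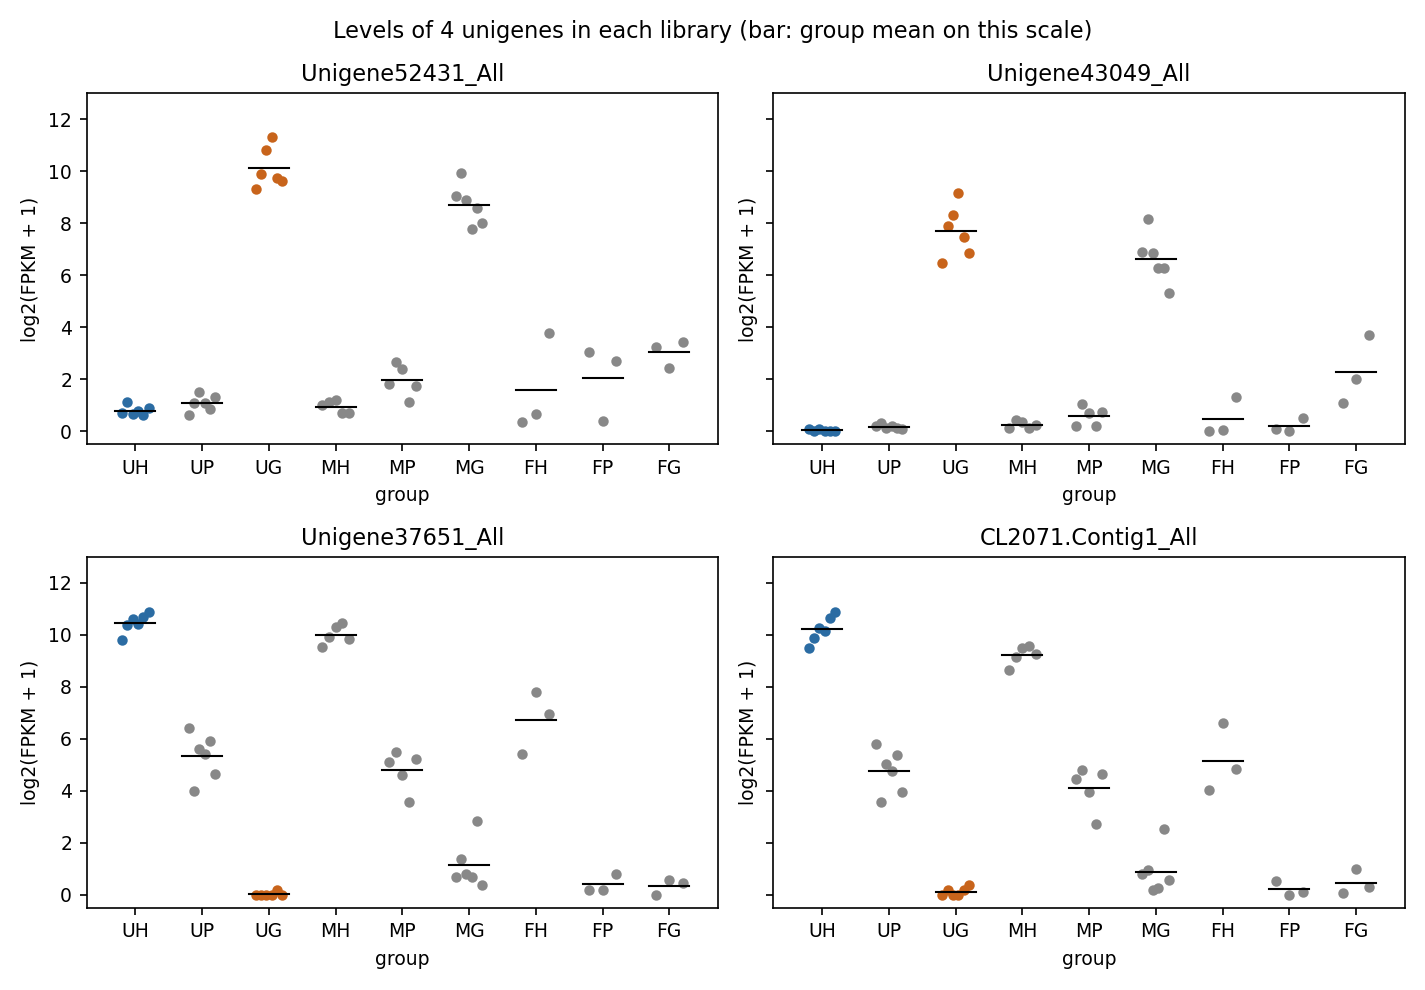
Level of the 4 named unigenes as log2(FPKM + 1) in every library of the 9 groups (blue UH, orange UG, grey the others); each point is a library and the bar is the group mean on this scale. Unigene52431_All and Unigene43049_All are high in UG and MG, and Unigene37651_All and CL2071.Contig1_All in UH and MH.

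Some unigenes were present in all libraries of one tissue and listed at 0 in all libraries of the other. Of 121952 unigenes, 451 were at 1 FPKM or more in every UH library and at 0 in every UG library. The reverse pattern was held by 74. At 5 FPKM or more there were 98 and 32, and at 10 FPKM or more, 44 and 11. UG libraries listed 17539 unigenes at 0 on average and UH libraries 11167, and the part of this in the counts was not tested. The 451 had a median level of 4.81 FPKM in UH and a highest mean of 176 FPKM, and the 74 had a median of 9.41 FPKM in UG and a highest mean of 153 FPKM. The first count moved most with UG replicate 2, being 657 without it and 471 without the shallow UG replicate 1. The second ranged from 74 to 90 with single libraries left out.

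Of the 74 unigenes limited to the gonad, all 74 had a mean of 1 FPKM or more in MG, with a median of 4.65 FPKM, and 9 did in FG, with a median of 0.163 FPKM. Over all tested unigenes these shares were 86.7% for MG and 38.9% for FG. In the stage I pituitary 3 of the 74 reached 1 FPKM and 52 were listed at 0 in all 6 libraries. Of the 451 limited to the hypothalamus, 446 reached 1 FPKM in MH, 133 in FH (29.5%) and 3 in MG, against 89.6%, 62.7% and 86.7% of all tested unigenes. In UP 234 of them reached it (51.9%), against 90.6% of all tested unigenes. The gonad set was thus rarely seen in the pituitary, and the hypothalamus set was seen there for about 1 unigene in 2.

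A larger set was defined by less strict limits. Called unigenes with a mean of 10 FPKM or more in one tissue and under 1 FPKM in the other, limits set after the data were seen, numbered 424 for UG and 1853 for UH. The median level of the 424 was 17.2 FPKM in UG, 0.435 in UH, 0.662 in UP, 7.53 in MG and 0.757 in FG. A mean of 1 FPKM or more was reached by 420 of them in MG (99.1%), 191 in FG (45.05%), 174 in UP (41.0%) and 70 in MH. Over all tested unigenes these shares were 86.7%, 38.9%, 90.6% and 89.6%. The pituitary share of the 424 thus lay far below that of all unigenes, though above the 3 of 74 of the stricter set. The FG share lay near that of all unigenes, which were not matched to the set by level. The median level of the 1853 was 16.6 FPKM in UH, 0.337 in UG, 4.46 in UP, 15.9 in MH, 2.79 in MP, 1.42 in FH and 0.619 in MG. A mean of 1 FPKM or more was reached by 1852 of them in MH, 1606 in UP (86.7%), 1073 in FH (57.9%) and 626 in MG (33.8%). The shares over all tested unigenes were 89.6%, 90.6%, 62.7% and 86.7%, so that those in UP and FH lay near the background and that in MG far below it. By median level, the stage I pituitary lay between UH and UG for the hypothalamus set and close to UH for the gonad set. The limits place UH and UG far apart, which by itself favours a level between them in another tissue. Over all tested unigenes the median in UP was 3.54 FPKM, which also lies between the UH and UG medians of the hypothalamus set. UP libraries come from the same fish as UH and UG.

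**Figure D4:**
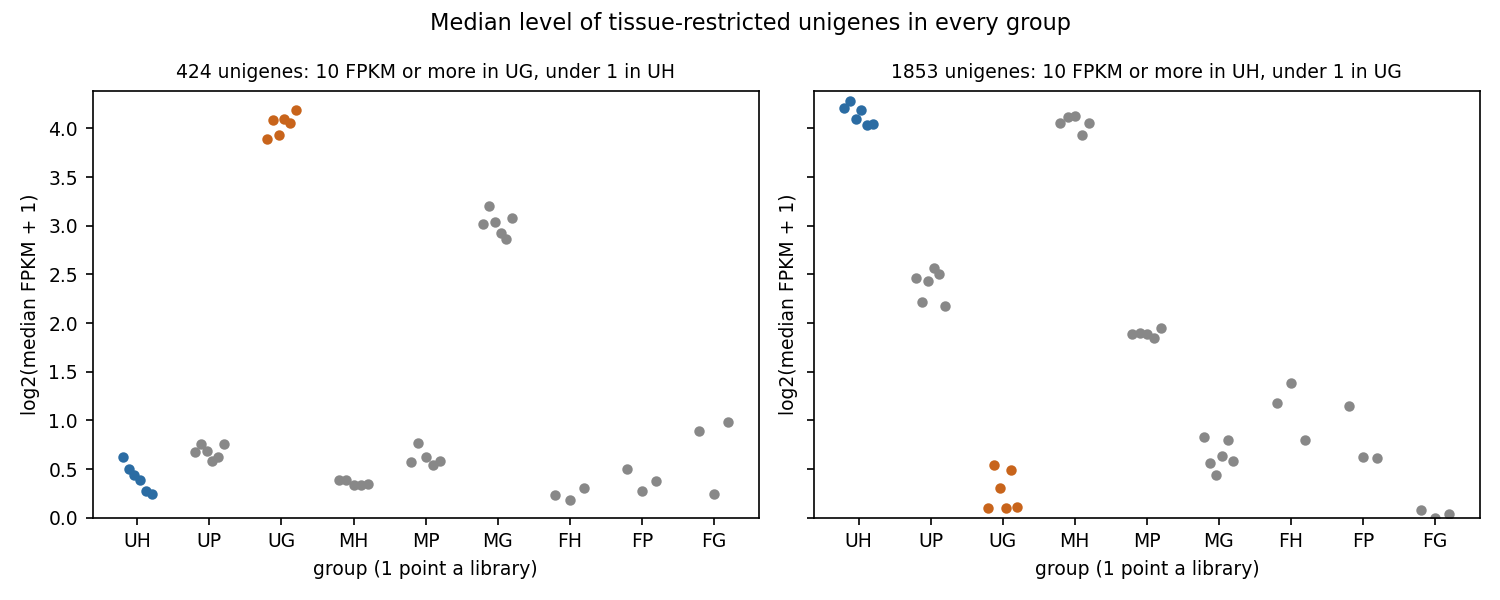
Median level, as log2(median FPKM + 1), of 424 unigenes restricted to UG (left) and 1853 restricted to UH (right) in every library of the 9 groups; each point is a library. The UG and UH points are high by choice of the unigenes, and the left set is at 6.29 to 8.20 FPKM in MG, while the right set is at 14.2 to 16.5 FPKM in MH and 3.53 to 4.93 FPKM in UP.

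The same comparison in stage II males, which shares no library with stage I, gave differences in the same direction for most of the called unigenes. MH-VS-MG, fitted alone with 5 MH and 6 MG libraries, called 62262 of 89864 unigenes (69.3%), 38648 higher in MG (43%) and 23614 lower (26.3%). Of the 13792 unigenes higher in UG, 13374 were tested in the males: 11860 were higher there too (88.7%) and 94 were lower (0.703%). Of the 24308 lower in UG, 23495 were tested in the males: 17501 were lower there too (74.5%) and 792 were higher (3.37%). Among the 37700 tested in both and not called in stage I, 17035 were higher in MG (45.2%) and 3949 lower (10.5%). Across the 74569 unigenes tested in both, the log2 fold changes had r = 0.872, a description over unigenes that are not independent. The split in the males depended on the scaling: after median-of-ratios scaling, which moved the median log2 fold change from 0.28 to 0.03, 29669 unigenes were higher and 29894 lower in MG. Set against this scaled male fit, the stage I calls were those without scaling. Of those higher in UG, 10649 of 13347 were higher in MG. Of those lower in UG, 19675 of 23663 were lower in MG.

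**Figure D5:**
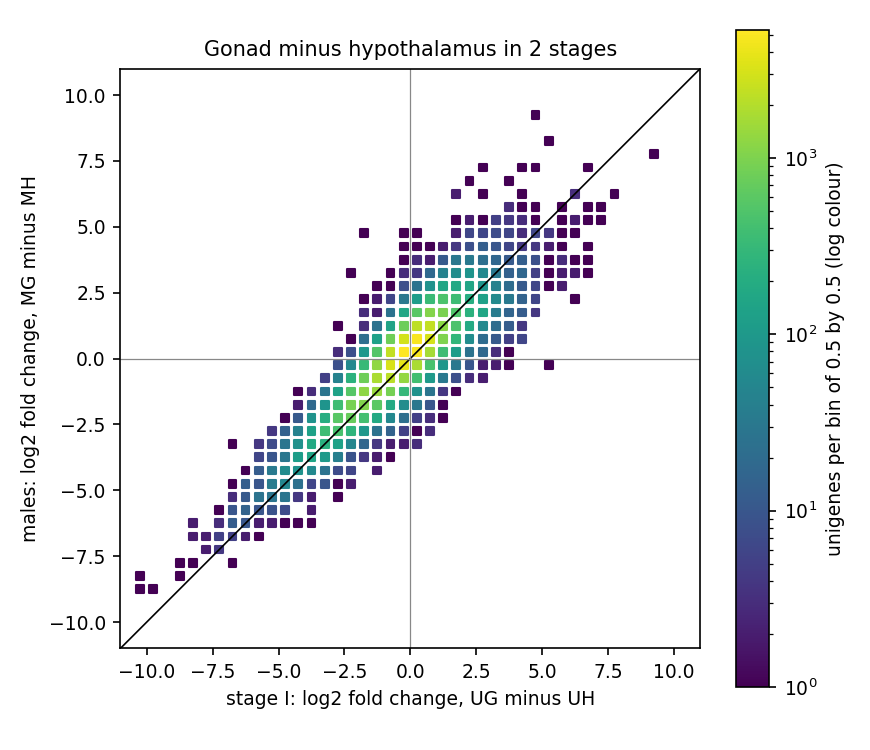
Log2 fold change of gonad minus hypothalamus in stage II males (MG minus MH, vertical) against stage I (UG minus UH, horizontal), with unigenes counted in bins of 0.5 by 0.5 and the colour giving their number on a log scale. The black line marks equal change; the 74569 unigenes rise together (r = 0.872) but are not centred on the line, the direct test of the stages over 97281 unigenes having a median difference of -0.34 as deposited and -0.04 after scaling.

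The difference between the stages was tested directly. In a fit over the 23 libraries of UH, UG, MH and MG, 19254 of 97281 unigenes (19.8%) had a tissue difference in stage I that differed from the one in males. The gonad minus hypothalamus difference was higher in stage I for 2269 (2.33%) and lower for 16985 (17.5%). This split depended on the scaling: the median difference over all unigenes was -0.34, and after median-of-ratios scaling, which moved it to -0.04, 4439 were higher and 5474 lower, 9913 in all. With the fish block there were 1885 higher and 15090 lower, of which 1655 and 13666 were also called without it. Stage, age and sex composition differ together between these groups and cannot be told apart.

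Most of the unigenes with a lower difference in stage I were higher in the male gonad than in the male hypothalamus, with and without scaling. Of the 16985, 11283 were higher in MG than in MH, as were 43% of all unigenes tested in the males. Of these 11283, 10023 were not called higher in UG, a count that also takes in unigenes not tested in UH-VS-UG. Such untested unigenes numbered 4255 of the 16985. Of the unigenes tested in UH-VS-UG, 17.9% were called higher in UG. With all fits scaled by median-of-ratios, 5466 of the 5474 lower differences were among the 16985. Of the 5474, 3453 were higher in MG (33.0% of all unigenes tested were). Of these 3453, 3111 were either not called higher in UG or not tested in UH-VS-UG. The median levels of the 16985 were 2.54 FPKM in UH, 1.55 in UG, 2.00 in MH and 4.23 in MG. A further 2459 of the 16985 were lower in the gonad at both stages. Of the 2269 with a higher difference in stage I, 1152 were higher in UG than in UH, and 1118 were lower in MG than in MH, against 17.9% and 26.3% of all unigenes tested in those comparisons. Their median levels were 2.89 FPKM in UH, 7.81 in UG, 4.12 in MH and 2.34 in MG. The shares and levels in this paragraph describe unigenes chosen by the test on the same libraries. That choice by itself favours MG above MH among the lower differences, and UG above UH and MG below MH among the higher ones.

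The named unigenes had been chosen for their large change in stage I, which favours a larger change there than in males, so that their stage differences are given as a description with no test. The log2 fold change of Unigene52431_All was 9.32 in stage I and 7.76 in males, a difference of 1.57 (SE 0.46). Unigene43049_All had 7.67 and 6.38, a difference of 1.28 (SE 0.54). Unigene37651_All had -10.44 and -8.88, a difference of -1.55 (SE 0.42), and CL2071.Contig1_All had -10.10 and -8.36, a difference of -1.75 (SE 0.43). For both of the latter, MG replicate 5 stood well above the other MG libraries, at 6.20 and 4.72 FPKM.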

How the data were processed

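Hypothalamus, pituitary and gonad were taken from each fish. The deposited FPKM values were made by the authors: stranded mRNA libraries were read on Illumina HiSeq instruments, filtered with SOAPnuke, assembled with Trinity and clustered with TGICL, mapped to the unigenes with SOAP2 and estimated with RSEM, without pooling. The files hold no counts, so precision rests on the 6 fish of each group and no counting interval is given. Relative depth was read from ratios of values under 0.15 FPKM. Members and lists were chosen with earlier results of these data known.

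Groups followed the labels. The hypothalamus and pituitary of male fish 4, 2 libraries whose titles conflict with their codes, were left out. A unigene was tested where 6 or more of the 12 libraries (5 of 23 for the stage comparison) reached 1 FPKM. The test was that of limma 3.58.1 (R 4.3.3; lmFit, then eBayes with its trend option), applied to log2(FPKM + 1), which understates changes of low unigenes, with Benjamini-Hochberg adjustment over all unigenes tested and a threshold of 0.05, two-sided. Library values were compared by exact permutation tests (SciPy 1.17.1), two-sided. Numbers pair hypothalamus and gonad because both came from the same fish; deviations of same-fish libraries correlated at -0.248 to 0.259. At most 2 unigenes per direction were named: called with and without the fish block, at least 10 FPKM on average in the higher tissue, no overlap of libraries and the largest change, with 1 contig per cluster. Alternatives were the fish block, pseudocount 0.1, no filter or 5 FPKM, a log2 fold change of 1, median-of-ratios scaling, sample weights, 1 fit of all groups, each library left out, and the NOISeq rule (probability of 0.8 or more) that the study used, rewritten here. Left-out fits kept the tested unigenes of the full fit. The fits were run on simulated data with an equal spread in all groups and few changed unigenes. Both settings differ from these data, so that the runs are no measure of the error rate here.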

Additional observations from a re-analysis of the deposited data

Results flagged for a closer look

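In 34 groups of values examined for a library far from the rest, 5 had one. The usual chance rate of about 1 in 20 does not hold for groups made mostly of values at 0. Nor does it hold for unigenes chosen by extreme levels, so that no excess over chance is read from this. The relative depth of UG replicate 1 was 0.776, below the other gonads. Unigene37651_All was at 0.148 FPKM in UG replicate 5 and listed at 0 in the 5 other gonads. MG replicate 5 stood above the other MG libraries at 6.20 FPKM for Unigene37651_All and at 4.72 FPKM for CL2071.Contig1_All. For Unigene43049_All it was MG replicate 2, at 286.9 FPKM.

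The gonad minus hypothalamus difference in stage I differed from that in males for 19254 unigenes (limma, adjusted p of 0.05). The choice of the named unigenes by their stage I change favours such a difference, so theirs is given with no test. It was 1.57 for Unigene52431_All, 1.28 for Unigene43049_All, -1.55 for Unigene37651_All and -1.75 for CL2071.Contig1_All on the log2 scale.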

How the results depend on the processing

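With the replicate block by fish, the UH-VS-UG calls numbered 37092 and the stage difference calls 16975. By unadjusted p-values of the library tests, the pairing ended 1 call: the -8890.5 expressed unigenes, with an exact p = 0.0625 in the paired test. The calls of the other library tests and of the named unigenes did not change. Among all tested unigenes, 1132 calls higher and 1050 lower in UG were lost with the block. Gained with it were 595 higher and 579 lower. The paired p of the distance, 0.03125 (exact sign permutation test), would miss 0.05 if adjusted over the 3 comparisons between libraries. At 5 FPKM the expressed difference was -3684.5 (exact permutation p = 0.0823), at 0.1 FPKM -7452.2 (0.0195), after scaling -7969.7 (0.00216) and without fish 5 and 6 -12119.5 (0.0286). Leaving out single libraries gave -10646.7 to -7726.3, past the threshold of 0.05 without adjustment except without UH replicate 1 or 2 or UG replicate 1, 4 or 6 (exact permutation p = 0.0519 each). The top-10 share difference of -1.36 percentage points ranged from -2.44 to -0.0966 and turned to 13.99 for the 100 highest unigenes and to 1.75 without fish 5 and 6 (exact permutation p = 0.429), an alternative chosen after seeing the data. The distance difference was 0.0703 to 0.0975 with 1 library left out.

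A filter at 5 FPKM left 23920 unigenes tested in UH-VS-UG and gave 14432 calls (5204 higher, 9228 lower). In the stage comparison it left 41716 tested and gave 10306 differences, 8689 of them lower in stage I. Requiring a log2 fold change of 1 left 26080 UH-VS-UG calls (8448 higher in UG) and 12644 stage differences, 11051 of them lower. The NOISeq rule called 16956 of 118862 unigenes (6030 higher, 10926 lower). Scaling of the males alone and of the classes was added after seeing the data. Scaling gave 9913 stage differences (4439 higher, 5474 lower). Leaving out single libraries gave 35201 to 39299 UH-VS-UG calls and 14941 to 24271 stage differences. Without fish 5 and 6 there were 33119 UH-VS-UG calls. A pseudocount of 0.1, no filter, scaling, sample weights and 1 fit of all groups gave 36702 to 49118 UH-VS-UG calls. In each of these settings more unigenes were lower than higher in UG.

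Unigenes present in UH and listed at 0 in UG numbered 98 at 5 FPKM or more and 741 where under 0.1 FPKM counted as absent, and the reverse pattern 32 at 5 FPKM. Opposite clusters numbered 118 at a log2 fold change of 1 or more. Causes were not tested. Without counts, depth limits the reading of values listed at 0, and the shallowest gonad library holds the most of them.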
